A study of Mus musculus with 19 samples.

Results

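Slfn1 and Slfn2 are neighbouring Schlafen genes on mouse chromosome 11, and their RNA is described here across the stages, cell types and genotypes of a thymus data set. The members were the 2 Gene Expression rows with these symbols among 28692 rows; 10 rows carry a Schlafen symbol. Slfn1 (ENSMUSG00000078763) lies at chr11:83116820-83122670 and Slfn2 (ENSMUSG00000072620) at chr11:83065112-83070678, both on the plus strand of GRCm38.p6 in RefSeq. Slfn1 was chosen because it led the mature single-positive (SP) cells of these mice, so its levels across stages and cell types are given as a description, with no test. Most mature CD4 SP cells fell in the cluster it led and most mature CD8 SP cells in another, so the Slfn1 differences between the wild-type CD4 SP and CD8 SP gates and between CD4-fated and CD8-fated mice are also given with no test. Slfn2 was tested in these comparisons, and both genes were tested between genotypes.

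Single thymocytes of 17 female mice aged 4 to 8 weeks were measured by CITE-seq, which counts RNA and the DNA tags of surface antibodies in the same cell, on 19 lanes. The CD4-fated mice were AND mice, which carry a transgenic T cell receptor (TCR) recognising MHC class II on a Rag1-/- background, OT-II mice, whose transgenic TCR also recognises class II but which keep Rag genes, and MHCI-/- mice, which lack B2m and keep a diverse repertoire. The CD8-fated mice were F5 mice (transgenic class I-restricted TCR, Rag1-/-), OT-I mice (transgenic class I-restricted TCR with Rag genes) and MHCII-/- mice, which lack H2-Ab1 and keep a diverse repertoire. There were 2 mice of each genotype and 5 wild-type C57BL/6 mice. Cells of the MHC-deficient mice, and of 3 of the 5 wild types, were enriched by a CD5+TCRβ+ sort, whereas AND, F5, OT-I, OT-II and the other 2 wild-type mice were not. Replicate 1 of AND, F5 and wild type formed experiment 1, replicate 2 of AND and F5 with the MHC-deficient mice and wild-type replicates 2 and 3 formed experiment 2, and the OT mice with wild-type replicates 4 and 5 formed experiment 3, which the study's sample sheet places at another location. Each CD4-fated genotype was matched to a CD8-fated one as a family (AND to F5, MHCI-/- to MHCII-/-, OT-II to OT-I), which cannot be told apart from its sort, its Rag status and, for the OT mice, its location.

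After filters and removal of doublets 69254 cells remained, with a median of 1492 to 7185 RNA UMIs (unique molecular identifiers, each counting 1 captured molecule) per cell across lanes. Levels are given in CPM, the UMIs of a gene per 1000000 RNA UMIs of the same cells. In the MHCI-/- mice the level of B2m was 47.2 and 48.8, against 405 to 1253 in the other 15 mice. H2-Ab1 stood at 8.81 and 8.83 in the MHCII-/- mice, inside the range of the other mice (2.95 to 267), so it does not check those labels. Rag1 ran from 5.69 to 53.4 in the 4 AND and F5 mice and from 27.3 to 1576 in the other 13 mice. Replicate 2 of OT-I, replicate 2 of OT-II and wild-type replicate 5 stood apart: together they held 3820 of the 3880 cells of cluster 6. Their mature cells were placed in cluster 6 together with cells of earlier stages. Wild-type replicate 5 therefore has no value for the mature SP-like, CD8 SP-like and interferon-like clusters. The 3 lanes of experiment 1 shared 33 to 35 barcodes in each pair, at most 1.27% of the smaller lane.

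Schlafen genes encode a family of proteins that restrain growth and act in innate defence, and many of them are induced by type I interferon. Slfn1 was named for its ability to slow the proliferation of T cells. Slfn2 holds T cells in quiescence: in mice with the elektra mutation of Slfn2 peripheral T cells enter a semi-activated state, fail to expand and die. In the thymus, cells pass from CD4-CD8- double-negative (DN) to CD4+CD8+ double-positive (DP) thymocytes, are selected on MHC, and become CD4 or CD8 SP cells that mature, regain quiescence and leave for the blood. The counts come from the 3′ ends of transcripts and were not compared between genes. Slfn genes are close paralogs in a cluster, and how many of their reads could match another member cannot be seen from the counts.

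The promoters of both genes are shown because Slfn1 and Slfn2 had their highest levels in the same cells, those with an interferon response, and because a short stretch recurs in them. The sequences run from 250 bases before to 50 bases after the RefSeq start (GRCm38.p6), at chr11:83116570-83116869 for Slfn1 and chr11:83064862-83065161 for Slfn2, on the plus strand. Capitals mark the 2 kinds of stretch found, ACTTCCTGG and, in Slfn2, the reverse complement of CACCC.
Slfn1 promoter: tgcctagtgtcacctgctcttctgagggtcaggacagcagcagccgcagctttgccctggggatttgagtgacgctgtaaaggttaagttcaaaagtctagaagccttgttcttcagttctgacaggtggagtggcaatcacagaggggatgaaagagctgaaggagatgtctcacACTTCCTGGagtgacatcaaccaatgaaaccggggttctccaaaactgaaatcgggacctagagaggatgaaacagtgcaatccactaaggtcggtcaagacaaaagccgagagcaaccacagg
Slfn2 promoter: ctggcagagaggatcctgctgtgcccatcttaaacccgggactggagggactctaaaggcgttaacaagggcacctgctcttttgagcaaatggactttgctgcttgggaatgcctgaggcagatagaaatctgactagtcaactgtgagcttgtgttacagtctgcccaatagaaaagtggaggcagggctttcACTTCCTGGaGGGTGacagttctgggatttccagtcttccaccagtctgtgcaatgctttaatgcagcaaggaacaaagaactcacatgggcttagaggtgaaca
The interferon-stimulated response element was searched on both strands as a pair of GAAA repeats 2 bases apart. No exact match was in either window, and near matches were not counted. An exact match was present in 3.49% of the 27025 mouse promoters of the same length, among them those of Slfn5, Slfn8 and Slfn9. CACCC, the core bound by Krüppel-like factors such as KLF2, was found once in Slfn2, on the minus strand at position -45 from the start, and not in Slfn1, against 56.7% of all promoters. ACTTCCTGG, chosen after the sequences had been read, starts at -74 in Slfn1, -55 in Slfn2, -73 in Slfn4 and -42 in Slfn3, and was in 0.888% of all promoters. These are matches of letters and not binding sites.

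In wild-type mice Slfn1 was nearly absent from the quiescent and signaled DP-like clusters and high in the mature SP-like and interferon-like clusters. Clusters were named "-like" from lists of marker genes, and levels are CPM over the cells of a class in a mouse, with the mean ± SD over mice. In interferon-like cells, named from interferon-response genes, Slfn1 stood at 900, 813, 691 and 840 in wild-type replicates 1 to 4 (811 ± 87.9, n = 4). In mature SP-like cells it stood at 350, 318, 272 and 343 in the same mice (321 ± 35.3, n = 4). All 4 interferon-like values lay above all 4 mature SP-like values. In regulatory T cell-like (Treg-like) cells Slfn1 averaged 244 ± 48.2 (n = 5), and in CD8 SP-like cells it stood at 189, 146, 126 and 182 (161 ± 29.6, n = 4), so that the mature SP-like and CD8 SP-like values did not overlap. In quiescent DP-like cells it stood at 1.00, 9.38, 4.59, 1.63 and 6.21 in replicates 1 to 5 (4.56 ± 3.43, n = 5), and in signaled DP-like cells, which carry marks of TCR signalling, it averaged 2.65 ± 1.68 (n = 4). DN-like cells (2.87, n = 2) and cycling-like cells (26.5 ± 14.9, n = 5) were low as well. DP cells gated by antibody as TCRβ high held more, with Slfn1 at 83.7, 75.2 and 42.2 in the sorted replicates 1 to 3 and at 25.7 and 23.4 in the unsorted replicates 4 and 5.

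Slfn2 was also highest in interferon-like and then mature SP-like cells, but was present throughout. It stood at 834, 858, 812 and 838 in interferon-like cells (835 ± 18.7, n = 4) and at 528, 554, 499 and 571 in mature SP-like cells (538 ± 31.4, n = 4). In Treg-like cells it averaged 424 ± 117 (n = 5) and in CD8 SP-like cells 312 ± 50.1 (n = 4). Cluster 25, an unnamed cluster whose closest markers were those of myeloid cells, ranked next after mature SP-like cells for both genes, with overlapping values. It held Slfn1 at a mean of 253 (199 to 307) and Slfn2 at 526 (418 to 633, n = 2). The orders parted below these 3 classes, as in cluster 4, which was left unnamed too. Slfn2 stood there at 485, 456, 410 and 491 in replicates 1 to 4, above the CD8 SP-like cells of each mouse. Slfn1 stood at 68.8, 54.8, 38.0 and 58.9 in cluster 4, below the CD8 SP-like cells. Quiescent DP-like cells, where Slfn1 was close to 0, held Slfn2 at 300.2, 317, 312, 243 and 181 (271 ± 58.4, n = 5), a range that overlapped that of CD8 SP-like cells. The lowest levels were in cycling-like cells (99.8 ± 32.6, n = 5), DN-like cells (37.0, n = 2) and cluster 11 (22.9, n = 4), an unnamed cluster whose closest markers were those of cycling cells. From the highest to the lowest of 18 classes Slfn2 spanned 36.4-fold. For each gene 14 of the 17 neighbours in the order of classes had overlapping mice. The values that stood clear of the next class were, for Slfn1, the interferon-like cells, cluster 23 and the myeloid-like cells, and for Slfn2 the interferon-like cells, cluster 5 and the cycling-like cells.

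**Figure D1:**
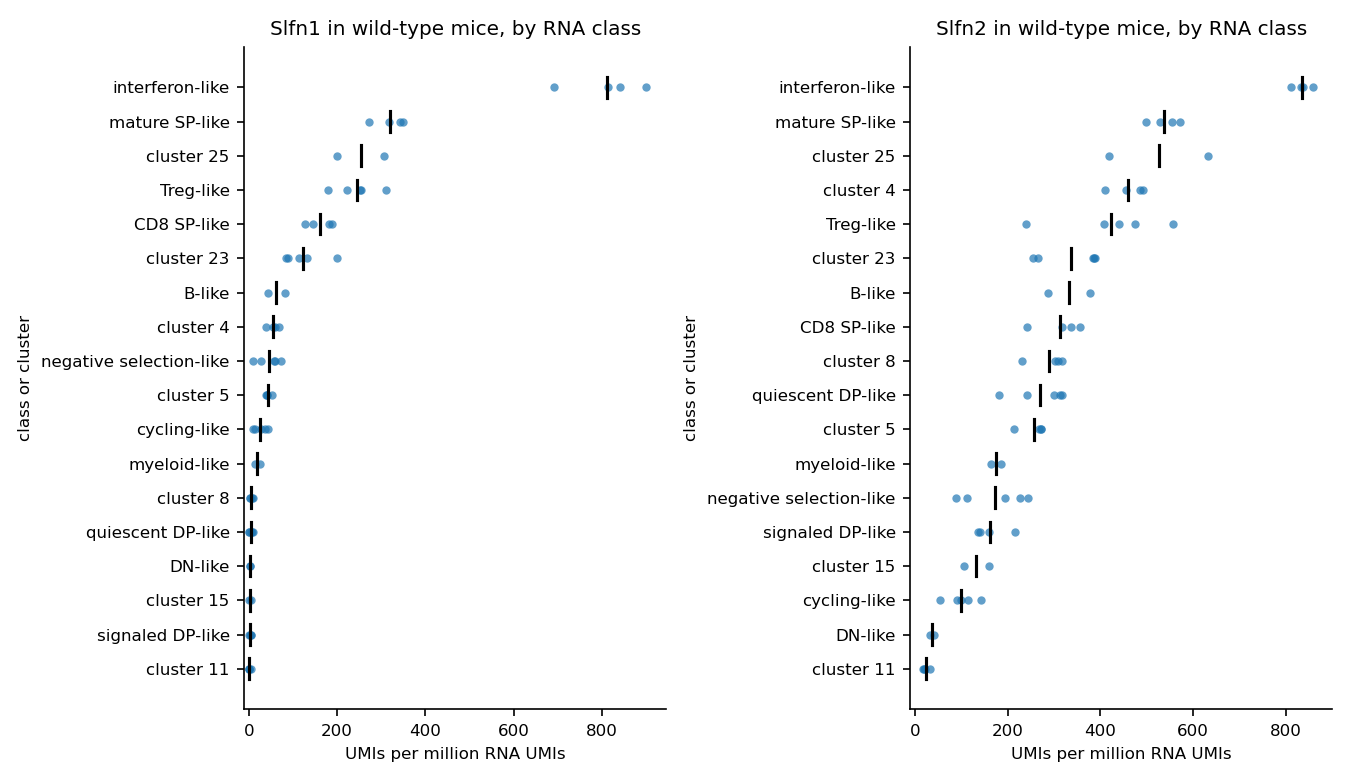
Level of Slfn1 and Slfn2 (CPM, linear axis) in each cell class of wild-type mice; points are mice and bars mark the mean. Slfn1 ran from 811 in interferon-like to 4.56 in quiescent DP-like cells, while Slfn2 ran from 835 to 271 in the same classes.

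Shares of cells with at least 1 UMI showed the same picture once depth was matched. With every cell thinned to 1500 UMIs, Slfn1 was found in 71.8% of 316 interferon-like cells, 34.5% of 2392 mature SP-like cells (95% exact binomial interval 32.6 to 36.4) and 0.336% of 8323 quiescent DP-like cells (0.224 to 0.486) after 3915 shallower DP-like cells had been left out. The quiescent DP-like share stands here for a class nearly without the gene, and free RNA in the droplets was not measured. Without thinning the shares were 93.7%, 74.3% and 0.597%, at median depths of 5357, 5302 and 2109 UMIs. Slfn2 was found in 69.3% of interferon-like cells, 54.7% of mature SP-like cells and 28.6% of quiescent DP-like cells at 1500 UMIs, and in 6.09% of 657 DN-like cells, which were the deeper cells (median 5817 UMIs against 2515 in the quiescent DP-like cells that were thinned). Without thinning Slfn2 was found in 98.1%, 90.1%, 34.9% and 20.7% of these 4 classes. These intervals cover counting error only.

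Along maturation the Slfn1 level was low in the first 2 bins and highest in the last, whereas Slfn2 was present from the start. Cells of the DP to SP path were placed in 6 bins of equal size by a score of late genes (among them Klf2, S1pr1, Gimap6, Il7r and Ccr7) minus early genes (among them Arpp21, Aqp11, Ccr9, Cd24a and Rmnd5a). Schlafen rows were kept out of the score, but score and levels come from the same cells. Genes of the score still differed between CD4-fated and CD8-fated mice within bins, with Il7r and Klf2 called in bin 4 and Ccr9 in bins 5 and 6. Bin 6 held 1553 AND and 117 F5 cells, 1285 MHCI-/- and 234 MHCII-/- cells, and 194 OT-II and 280 OT-I cells. Whether a bin holds the same stage of both lineages was not tested. In wild-type mice the Slfn1 level averaged 3.89 ± 2.35 in bin 1, 10.4 ± 6.64 in bin 2, 48.0 ± 14.2 in bin 3, 96.3 ± 21.4 in bin 4, 202 ± 25.3 in bin 5 and 307 ± 62.7 in bin 6 (n = 5). The Slfn2 level averaged 174 ± 39.4, 233 ± 27.9, 346 ± 58.9, 315 ± 45.9, 390 ± 47.3 and 505 ± 55.8 in the same bins. Both genes were highest in bin 6 in all 5 wild-type mice and all 6 CD4-fated mice. The wild-type bins mix the 2 lineages. CD8 SP-like cells made up 41.2% of bin 5 and 10.7% of bin 6 in sorted wild-type mice, and 18.9% and 7.38% in unsorted ones. The part of this shift in the wild-type levels was not tested. In CD8-fated mice Slfn1 was highest in bin 6 in 5 of 6 mice, whereas Slfn2 was highest in bin 6 in 3 mice and in bin 3 in the other 3. The bin 3 level of Slfn2 was 471 and 479 in the MHCII-/- mice, above their bin 6 levels of 402 and 415.

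**Figure D2:**
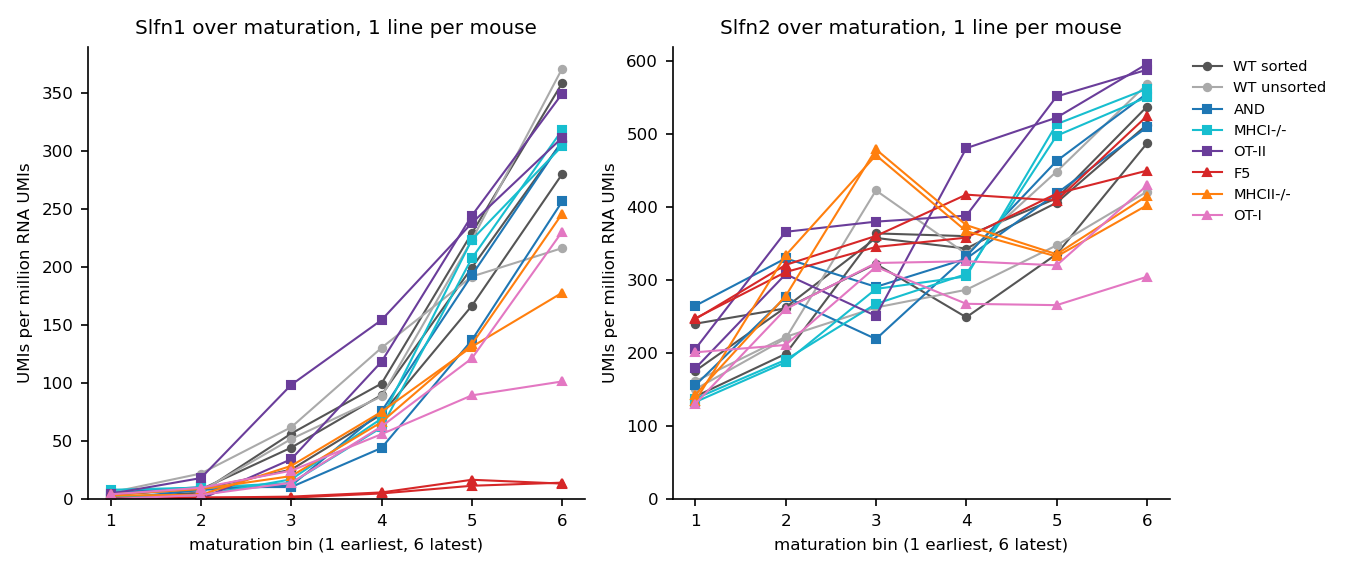
Levels of Slfn1 and Slfn2 (CPM) in 6 maturation bins, for each mouse by genotype; lines join the bins of a mouse. Slfn1 of both F5 mice stayed at or under 16.7 in every bin, while their Slfn2 reached 450 and 524 in bin 6.

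In the wild-type thymus, the CPM of Slfn1 and that of Slfn2 were higher in mature CD4 SP than in mature CD8 SP cells. Gates were set on antibody counts, among them those for CD4, CD8a, TCRβ and CD24, and mature cells were CD24 low and high for a late marker. In a sum over the cells of a gate, fewer cells with a transcript and less RNA per cell cannot be told apart. CPM is also a share of all RNA UMIs, and these differed between the cells. CD8 SP-like cells had 1.71 times the median RNA UMIs of their lane, against 1.10 times in mature SP-like cells. In replicate 1 the mature CD4 SP gate held 869 Slfn2 UMIs in 240 cells and the mature CD8 SP gate 99 in 30 cells. In replicate 5 these were 322 in 290 and 134 in 125. Differences in UMIs per cell were not tested, here or in the bins. Slfn1 in the mature CD4 SP gate of replicates 1 to 5 stood at 415, 335, 307, 423 and 236, against 194, 145, 118, 208 and 117 in the mature CD8 SP gate of the same mice. The CD4 SP level was the higher one in 5 of 5 mice, by 2.02 to 2.60 times, and the groups did not overlap. The fitted log2 difference, with the mouse as a block, was 1.14 (SE 0.075) and is a description, since the choice of Slfn1 drew on these cells. Slfn2 stood at 545, 539, 509, 588 and 422 in the CD4 SP gate and at 338, 335, 271, 361 and 266 in the CD8 SP gate. It was higher in CD4 SP cells in 5 of 5 mice, by 1.59 to 1.88 times, and again no values overlapped (log2 difference 0.72, SE 0.061, Benjamini-Hochberg adjusted p = 4.30e-14, edgeR's quasi-likelihood test with the mouse as a block). In this comparison 22.8% of 8353 genes were called, and 10.5% were called higher in CD4 SP cells.

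**Figure D3:**
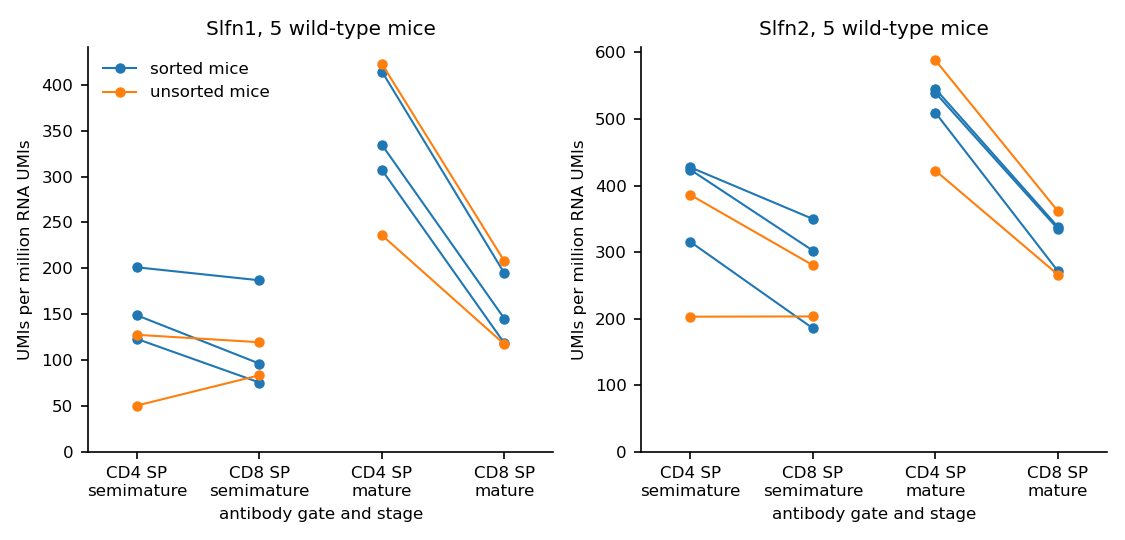
Levels of Slfn1 and Slfn2 (CPM) in the CD4 SP and CD8 SP gates of the 5 wild-type mice at the semimature and mature stages; lines join the 2 gates of a mouse. At the mature stage every line falls from CD4 SP to CD8 SP for both genes, and at the semimature stage the Slfn1 lines run in both directions.

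The gates differed in makeup as well. Of the mature CD4 SP cells of sorted wild-type mice 79.9% were in the mature SP-like cluster, 7.60% in the interferon-like cluster and 7.07% in the Treg-like cluster, while 91.6% of the mature CD8 SP cells were in the CD8 SP-like cluster. With only the leading cluster of each gate taken, Slfn1 stood at 360, 327, 291 and 377 in CD4 SP cells of replicates 1 to 4, against 190, 139, 128 and 209 in CD8 SP cells. Slfn2 stood at 510, 539, 526 and 562 against 348, 336, 271 and 360.2 in the same cells. The CD4 SP values were the higher ones in all 4 mice for both genes. For Slfn1 this is a description and no support, since it was chosen as a gene that led the mature SP-like cluster. The 5 markers of CD8 SP-like cells summed to 2963 to 3482 CPM in the mature CD8 SP gate of the 5 mice and to 105 to 468 in the mature CD4 SP gate, and the 6 Treg-like markers summed to 320 to 391 and 359 to 660.

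The fitted lineage difference of Slfn1 was 1.14 at the mature stage and 0.24 before it. In semimature cells, which are CD24 high and low for the late marker, Slfn1 stood at 201, 149, 123, 127 and 50.4 in the CD4 SP gate and at 187, 96.0, 75.4, 119 and 83.4 in the CD8 SP gate, and replicate 5 went against the other 4 mice (log2 difference 0.24, SE 0.12). Slfn2 stood at 427, 424, 315, 386 and 203 in semimature CD4 SP cells and at 350, 302, 185, 280 and 203 in semimature CD8 SP cells. Its CPM difference was called (log2 0.40, SE 0.084, adjusted p = 0.00098, edgeR) and was lost with higher gate thresholds (log2 0.17, adjusted p = 0.301). Counted per cell, semimature CD4 SP cells held more Slfn2 in replicates 1 to 3 and less in replicates 4 and 5. Replicate 4 held 1171 UMIs in 511 CD4 SP cells and 237 in 97 CD8 SP cells, and replicate 5 held 137 in 286 and 39 in 62. Differences per cell were not tested. Of 7968 genes 20.8% were called at this stage. In sorted wild-type mice 48.6% of semimature CD4 SP cells were in cluster 5 and 29.3% in the mature SP-like cluster. Of semimature CD8 SP cells 39.6% were in the CD8 SP-like cluster and 38.6% in cluster 4. The part of this makeup in the difference was not tested. The change of the lineage difference with stage, computed after these values had been seen, was 0.88 on the log2 scale for Slfn1 (SE 0.17), a description since Slfn1 was chosen as high in mature cells. For Slfn2 it was not called (log2 0.33, SE 0.12, adjusted p = 0.183, edgeR), where 2.39% of 8538 genes were called. From semimature to mature cells the Slfn1 level of a mouse was 2.06 to 4.69 times as high in the CD4 SP gate and 1.04 to 1.74 times as high in the CD8 SP gate.

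Between CD4-fated and CD8-fated mice, the CPM of Slfn1 was higher in all CD4-fated mice in the last 2 bins. In bin 5 the level was 193 and 137 in AND, 224 and 208 in MHCI-/- and 244 and 238 in OT-II mice, against 16.7 and 11.5 in F5, 134 and 131 in MHCII-/- and 121 and 89.4 in OT-I mice. All 6 CD4-fated values lay above all 6 CD8-fated values. Counted per cell the order was not the same in every family. MHCI-/- mice held 362 Slfn1 UMIs in 398 cells and 410 in 331, fewer per cell than MHCII-/- mice with 451 in 362 and 847 in 559. AND mice, with 206 in 235 and 131 in 165, held more per cell than F5 mice, with 26 in 292 and 17 in 332. The OT pairs overlapped per cell. These differences per cell were not tested. The fitted log2 difference, with the family as covariate, was 1.59 (SE 0.33), and 9.78% of 8714 genes were called in bin 5. In bin 6 it was 309 and 257 in AND, 304 and 318 in MHCI-/- and 350 and 312 in OT-II mice, against 13.4 and 14.2 in F5, 246 and 178 in MHCII-/- and 231 and 101 in OT-I mice, again with no overlap (log2 1.39, SE 0.35). In bin 6, 6.37% of 7494 genes were called. The log2 difference was 1.13 (SE 0.37) in bin 4 and 0.69 (SE 0.44) in bin 3, and in bins 1 and 2 Slfn1 was under the filter on low counts. Of the genes tested, 7.05% were called in bin 4 and 1.60% in bin 3. From the CD4-fated mice 43 cells of the CD8 SP-like cluster had been left out of the bins. No cluster was named CD4 SP-like, so none was left out of CD8-fated mice in this way. In the bins 1013 cells had the antibody gate of the other lineage, and 12.9% of the OT-I cells of bin 6 were in the mature SP-like cluster.

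The 3 families differed in the size of the Slfn1 difference. The fitted difference was larger in AND and F5 mice than in the mean of the other 2 families by 2.95, 2.66 and 3.74 on the log2 scale in bins 4, 5 and 6, a description computed after the values had been seen. On this term 0.781%, 0.767% and 0.164% of all genes were called. In bin 5 the mean Slfn1 level of the CD4-fated pair was 11.7 times that of the CD8-fated pair in the AND and F5 mice, 2.29 times in the OT mice and 1.63 times in the MHC-deficient mice, and no family's pairs overlapped. In bin 3 the MHC-deficient mice went the other way, with 17.0 and 13.9 in MHCI-/- against 19.8 and 28.6 in MHCII-/- mice, and in bin 4 they overlapped, with 69.4 and 61.8 in MHCI-/- against 66.4 and 75.3 in MHCII-/- mice. Without the AND and F5 mice the log2 difference of Slfn1 was 0.48 in bin 4, 0.92 in bin 5 and 0.76 in bin 6.

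Slfn2 differed less between the lineages. In bin 5 it stood at 463 and 419 in AND, 513 and 497 in MHCI-/- and 551 and 522 in OT-II mice, against 418 and 409 in F5, 332 and 335 in MHCII-/- and 320 and 266 in OT-I mice. The 6 CD4-fated values lay just above the 6 CD8-fated values, and the difference was called (log2 0.51, SE 0.14, adjusted p = 0.029, edgeR). The call was lost without any 1 of the 4 MHC-deficient mice (adjusted p of 0.072 and 0.058 without MHCI-/- replicates 1 and 2, and of 0.074 without either MHCII-/- replicate). The difference is one of CPM. In bin 5 the MHCI-/- mice held 831 Slfn2 UMIs in 398 cells and 982 in 331, fewer per cell than the MHCII-/- mice, with 1122 in 362 and 2161 in 559. In the other 2 families the pairs overlapped per cell. Differences per cell were not tested. The bin 5 cells also lay in different clusters. Mature SP-like cells were 92.3% of the MHCI-/- cells, CD8 SP-like cells 97.1% of the MHCII-/- cells, and the unnamed cluster 3 held 98.9% of the F5 cells. In bin 6 the log2 difference was 0.45 (SE 0.14, adjusted p = 0.063, edgeR), which was not called. With a block for the replicate number, which sets AND beside F5 mice of the same experiment and pairs the other families by number only, it was called (log2 0.45, adjusted p = 0.0083, edgeR). In bins 1 to 4 the log2 differences were -0.01, -0.08, -0.43 and 0.01, none of them called, where 0.014% and 0.0505% of genes were called in bins 1 and 2. These means cover families that went opposite ways: the mean Slfn2 level of the CD4-fated pair over that of the CD8-fated pair was 0.854 in the AND and F5 mice, 0.826 in the MHC-deficient mice and 1.46 in the OT mice in bin 4, with no overlap within any family, and 0.618 in the MHC-deficient and 1.43 in the OT mice in bin 2, again with no overlap. In bin 3 Slfn2 was 288 and 267 in MHCI-/- and 471 and 479 in MHCII-/- mice. The cells of these groups lay in different clusters, with 76.1% of the MHCI-/- cells of bin 3 in cluster 5 and 92.1% of the MHCII-/- cells in cluster 4.

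F5 mice had little Slfn1, and in mature CD8 SP cells their Slfn2 level was near that of MHCII-/- mice. In the mature CD8 SP gate Slfn1 stood at 26.2 and 23.5 in the F5 mice, from 8 UMIs in 60 cells and 5 UMIs in 49 cells, against 146 and 145 in MHCII-/- mice. The other 8 mice with a value for this gate held Slfn1 at 85.1 to 208, so that both F5 mice lay below all of them. The log2 difference of F5 from MHCII-/- mice was -2.67 (SE 0.40, adjusted p = 0.0041, edgeR), with 0.919% of 9136 genes called. With either F5 mouse left out, so that the lone mouse was assumed to vary like the others, the log2 difference was -2.71 and -2.66 and the call was lost (adjusted p = 0.159 and 0.072). Slfn2 in the same cells stood at 383 and 315 in F5 and at 323 and 332 in MHCII-/- mice (log2 difference -0.03, SE 0.25, adjusted p = 0.988, edgeR). Within experiment 2 the F5 mouse held Slfn1 at 23.5 and the MHCII-/- mice held it at 146 and 145. F5 and MHCII-/- mice also differ in sort, Rag1 status and TCR repertoire, which this contrast cannot tell apart. The same is true of AND against MHCI-/- mice.

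Slfn1 was low in F5 mice along maturation as well. Against the mean of MHCII-/- and OT-I mice the fitted log2 differences of Slfn1 were -3.66 in bin 3, -3.67 in bin 4, -3.20 in bin 5 and -3.98 in bin 6. They are given as a description since this contrast was chosen after the values had been seen. The F5 mice held few Slfn1 UMIs, 4 and 2 in bin 3, 10 and 8 in bin 4, 26 and 17 in bin 5 and 6 and 2 in bin 6, so the sizes are imprecise. On this contrast 5.56%, 5.71%, 6.84% and 1.45% of all genes were called in these bins. For Slfn2 none of the 6 bins was called, with log2 differences from -0.21 to 0.69 and a lowest adjusted p of 0.067. Against MHCII-/- mice alone, the Slfn2 levels of F5 mice were higher in bin 1 (248 and 246 against 134 and 143), bin 5 (418 and 409 against 332 and 335) and bin 6 (450 and 524 against 402 and 415). They were lower in bin 3 (345 and 360.3 against 471 and 479). Values did not overlap in any of these bins, and overlapped in bins 2 and 4. These single-bin contrasts were not tested. In AND mice, the class II-restricted Rag1-/- partners of F5, mature CD4 SP cells held Slfn1 at 291 and 261, beside 295 and 329 in MHCI-/- mice. Of the mature F5 CD8 SP cells 97.2% were in cluster 3, an unnamed cluster of which 97.8% were F5 cells, whereas 91.6% of those of MHCII-/- mice were in the CD8 SP-like cluster. Cluster 3 also held 98.7%, 99.4%, 98.9% and 97.4% of the F5 cells of bins 3 to 6. The 5 CD8 SP-like markers summed to 3281 and 3658 in F5 and to 3025 and 3134 in MHCII-/- mice.

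**Figure D4:**
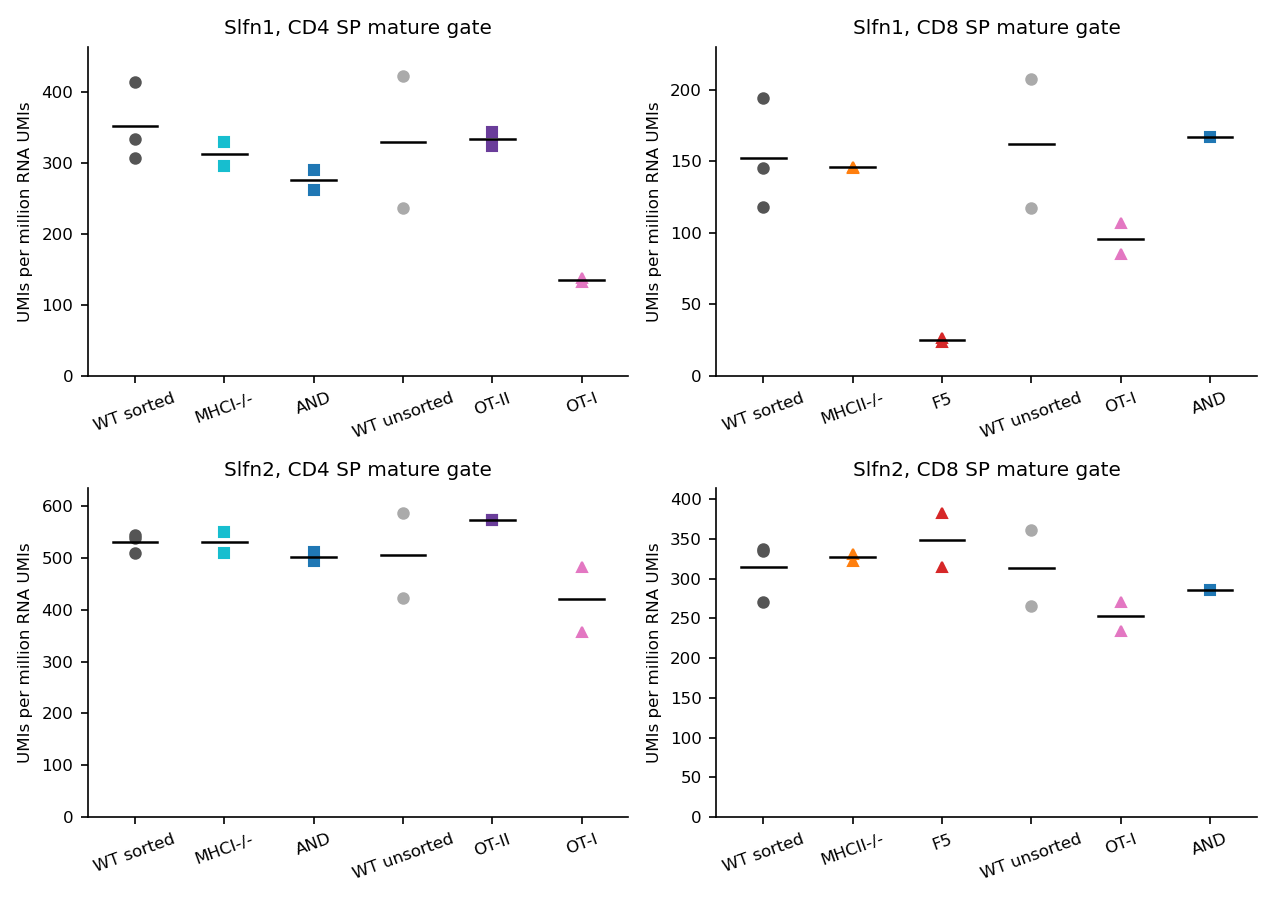
Levels of Slfn1 and Slfn2 (CPM) in the mature CD4 SP and mature CD8 SP gates of each mouse, by genotype. F5 mice lay at 26.2 and 23.5 for Slfn1 in the CD8 SP gate, below every other mouse, and at 383 and 315 for Slfn2.

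No other comparison of genotypes was called for either gene. In mature CD4 SP cells the log2 difference of Slfn1 was -0.12 (SE 0.25) for MHCI-/- against sorted wild-type mice, 0.05 (SE 0.29) for OT-II against unsorted wild-type mice and -0.29 (SE 0.28) for AND against MHCI-/- mice, and that of Slfn2 was 0.05 (SE 0.24), 0.23 (SE 0.26) and -0.19 (SE 0.26). In mature CD8 SP cells of MHCII-/- against sorted wild-type mice the differences were -0.04 (SE 0.26) for Slfn1 and 0.05 (SE 0.22) for Slfn2. None of these was called in edgeR (adjusted p of at least 0.959), where 0.0319%, 0.0532%, 1.61% and 0.0547% of genes were called in the 4 comparisons. OT-I mice held Slfn1 at 107 and 85.1 in mature CD8 SP cells, against 208 and 117 in the unsorted wild-type mice, and the values did not overlap. This difference was not called (log2 -0.78, SE 0.29, adjusted p = 0.972, edgeR, with 0.153% of genes called), nor was that of Slfn2 (log2 -0.32, SE 0.25). Without the libraries that stood apart, 1 mouse was left in each group, and with each assumed to vary like the mice of the other groups Slfn1 passed the threshold (log2 -0.999, adjusted p = 0.0063, edgeR), which is a comparison of 1 mouse with 1 mouse. OT-I cells in the mature CD4 SP gate, 73 and 94 cells, held Slfn1 at 132 and 137, below the 236 to 423 of wild-type mice in that gate. Of these OT-I cells 52.7% were in cluster 6, 19.2% in the mature SP-like cluster and 13.2% in cluster 4.

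Interferon-stimulated genes differed in some of these comparisons as well. The list, chosen with earlier results of these data known, holds 15 genes that type I interferon induces. In wild-type mature cells 10 of the 15 were higher in CD4 SP than in CD8 SP cells and none lower, beside 10.5% of all genes called higher, with a median log2 difference of 0.29 against -0.0029 over all genes; examples are Oasl2, a relative of the antiviral oligoadenylate synthetases (log2 1.01), and Rsad2, which encodes viperin (log2 0.62). In semimature cells 2 were higher and 1 lower, a share near the 20.8% of all genes called there. In bin 5, 4 of the 14 tested were higher in CD4-fated mice, where 9.78% of all genes were called in either direction, led by Ifi27l2a (log2 1.83) and Irf7, a transcription factor of the interferon response (log2 0.72), and in bin 6 Ifi27l2a alone was called (log2 1.68), where 6.37% of all genes were.

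In F5 mice the list was low beside Slfn1. Its summed level in the mature CD8 SP gate was 292 and 334 CPM in F5 mice, 2705 and 3047 in MHCII-/- mice, 1753 and 1858 in OT-I mice and 2877 to 4512 in wild-type mice. Against MHCII-/- mice 8 of the 15 were called lower and none higher, where 0.919% of all genes were called, and 6 were at 0 in both F5 mice. With genes at 0 set to a floor of 3 UMIs over the group, the median log2 ratio of the 15 genes was -2.78, and 14 of them were lower. Ifi27l2a stood at 5.79 in F5 and at 1308 in MHCII-/- mice, and Rtp4, which encodes a chaperone of membrane receptors, at 3.86 and 144. The part of these genes in the Slfn1 result was not tested. In AND mice the summed level in the mature CD4 SP gate was 1463 and 1488, against 4225 and 5372 in MHCI-/- mice, and 9 of the 15 were called lower, where 1.61% of all genes were called (median log2 -1.72 on the same scale), and Slfn1 there was not called (log2 -0.29). Interferon-like cells made up 1.12% of this gate in AND and 9.14% in MHCI-/- mice, and Treg-like cells 7.17% in MHCI-/- mice; their part in these values was not tested.

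**Figure D5:**
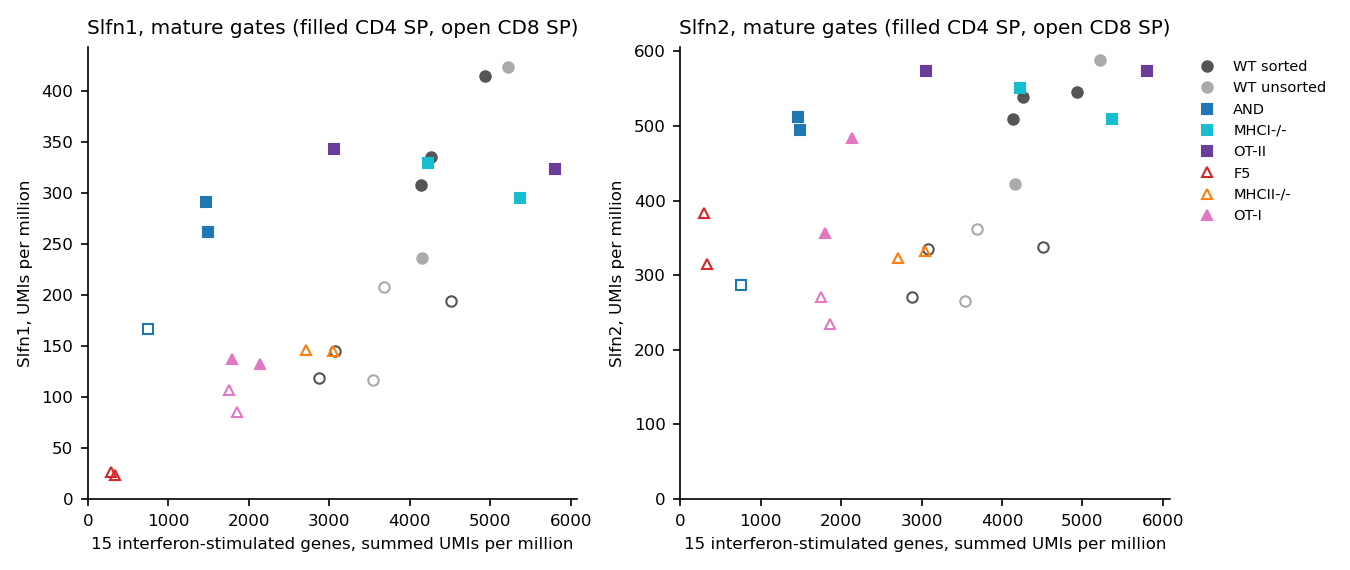
Slfn1 and Slfn2 level of each mouse in the mature SP gates against the summed level of the 15 interferon-stimulated genes (both in CPM); points are mice by genotype. F5 mice lie at the lower left for Slfn1, with sums of 292 and 334, and the AND mice combine sums of 1463 and 1488 with Slfn1 levels of 291 and 261.

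Genes of quiescence and of egress differed between the gates too. Of 11 quiescence genes 9 were higher in wild-type mature CD4 SP cells and 1 lower, where 22.8% of all genes were called and 10.5% called higher, with a median log2 difference of 0.48; the examples with the largest change were Tob1 (log2 0.99) and Btg2 (log2 0.65), which both encode antiproliferative proteins. The 1 lower gene was Vsir, which encodes the checkpoint receptor VISTA (log2 -0.49). Of 12 egress and maturation genes 8 were higher and 2 lower, led by Ccr9, a chemokine receptor (log2 -2.18), and Gimap4 (log2 0.95). S1pr1, the receptor that lets thymocytes follow sphingosine 1-phosphate into the blood, was higher by log2 0.71 and Klf2, the factor that drives it, by log2 0.32; both were named after their values had been seen, as was Vsir. Between F5 and MHCII-/- mice none of the 11 quiescence or 12 egress genes was called, where 0.919% of all genes were.

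Of the 8 other rows with a Schlafen symbol, Slfn5 and Slfn8 passed the filter on low counts in every comparison, and Slfn9 in the genotype comparisons. Slfn5 was higher in CD4 SP cells of wild-type mice at the mature stage (log2 1.61, SE 0.16, adjusted p = 9.14e-12, edgeR) and at the semimature stage (log2 1.61, SE 0.19), and in CD4-fated mice in bin 5 (log2 0.94) and bin 6 (log2 0.98). Slfn8 was lower in semimature CD4 SP cells (log2 -0.56, adjusted p = 0.0098, edgeR) and was not called at the mature stage (log2 0.17). In F5 against MHCII-/- mice Slfn5 and Slfn8 had log2 differences of -2.55 (SE 0.98) and -1.72 (SE 0.47), neither of them called. Slfn9 had log2 differences from -1.19 to 0.11 in the 6 genotype comparisons, none of them called. In interferon-like cells of wild-type mice they stood at 319 ± 59.9 for Slfn5 and 280 ± 41.8 for Slfn8 (n = 4). Slfn4, a gene known from myeloid cells and named after its values had been seen, was at 0 in the interferon-like and mature SP-like cells of all 4 mice and at 339 in cluster 25, whose closest markers were those of myeloid cells (n = 2).

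The genes whose pattern was most like Slfn1 across 69 wild-type sums of a mouse and a class, among 8021 genes, were Rtp4 (r = 0.93), Ifi27l2a (0.93), Pydc4 (0.92), H2-D1 (0.91), an MHC class I heavy chain, and Ifit1 (0.91). For Slfn2 they were Sp100 (r = 0.90), a nuclear body protein, Gm26740 (0.88), Cd52 (0.88), which encodes a small surface glycoprotein of lymphocytes, Trim12a (0.87) and Pyhin1 (0.86). Slfn1 and Slfn2 correlated with each other at 0.74, which was below the 0.78 of Slfn1 with Slfn8 and the 0.78 of Slfn2 with Slfn5. These values, Pearson's r of log2(CPM + 1), describe sums that share mice, libraries and depth, and carry no test. The neighbours of the 2 members were different genes, and none was shared between the lists.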

How the data were processed

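The authors deposited UMI counts per gene or antibody and barcode for each of 19 lanes, not normalized, made with Cell Ranger 3.1.0 on mm10 (GRCm38) per the labels and the study's methods. Pooled matrices that repeat the lanes were not used. The 2 members and the gene lists were chosen with earlier results of these data known.

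Cells were kept with at least 200 genes, at most 15% mitochondrial counts, 1000 to 10000 antibody UMIs and at least 70 of 111 antibodies; 72054 passed, and 2800 were called doublets by simulation, at 0.8% per 1000 barcodes. Clusters came from 2000 variable genes, 30 components, 20 neighbours and Leiden resolution 1 (leidenalg 0.10.2), and were named from fixed markers where at least 3 were detected; no cluster was named CD4 SP-like. All Schlafen rows were left out of clustering and of the maturation score. Gates used antibody counts per 10000, with a threshold per experiment. A late and an early gene of the maturation score and an antibody of the gates were used but are not reported here. Counts were summed per mouse and class (at least 20 cells), bin or gate (at least 10 cells), and tested in edgeR 4.0.16 (R 4.3.3, limma 3.58.1) with TMM scaling, the filterByExpr filter, a quasi-likelihood F test and Benjamini-Hochberg adjustment over all genes tested, at 0.05. Sums held 111887 to 6445650 UMIs per mouse and bin and 83838 to 5095187 per mouse and mature gate. Standard errors were back-calculated from the F statistic. The mouse is the replicate, and whether mice shared litters is not known, so p-values measure the spread between these mice.

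Genes were named by rule: Slfn1 and Slfn2 always, other Schlafen rows where tested, the 5 genes most correlated with each member, and from each list at most 2 examples with the largest change. Outside this rule, Slfn4, S1pr1, Klf2 and Vsir were named after their values had been seen. Lineage bins used the family as covariate, wild-type gates the mouse as block, and genotype contrasts all groups of a gate. Same-numbered mice of a family correlated at 0.11 to 0.16 (AND and F5), -0.013 to 0.011 (MHC-deficient) and 0.29 to 0.57 (OT) in their deviations. By number AND and F5 mice share an experiment, MHC-deficient mice share only a number, and OT mice of both numbers were in 1 experiment, so the numbers do not pair all families and the block is an alternative. Wild-type gates are paired by mouse. In data simulated for the bin 5 comparison over 8464 genes the test recovered 89% of genes changed by 1 on the log2 scale and 100% of those changed by 2. For OT-I against unsorted wild-type mice, over 8539 genes, it recovered 19% and 93%. Of the genes called, 6.44% and 9.68% were unchanged ones. The changed genes lay above a floor on counts and changed alike in every family. Recovery therefore does not carry over to Slfn1, which had few UMIs in F5 mice and differed in size between families. Sequences are from RefSeq, on GRCm38.p6. Alternatives were DESeq2 1.42.0, other scaling, no filter, other gates and bins, doublets kept and mice left out.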

Additional observations from a re-analysis of the deposited data

Results flagged for a closer look

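Among 78 groups of 4 to 10 mice, 4 had 1 mouse far from the rest by Dixon's criterion, about the number chance gives at 1 in 20. In bin 2 wild-type replicate 5 held Slfn1 at 22.1 CPM against 5.82 to 8.70 in the other 4 mice; this is a library that stood apart. In bin 3 OT-II replicate 2, another of these libraries, held Slfn1 at 98.5 against 10.4 to 34.4 in the other 5 CD4-fated mice. In cluster 11 wild-type replicate 2 held Slfn1 at 4.50 against 0 to 0.096, but the 4 mice held only 3 Slfn1 UMIs there in total. In cluster 5 wild-type replicate 3 held Slfn2 at 214 against 267 to 273.

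The Slfn1 difference between the lineages was larger in the AND and F5 family than in the mean of the other 2 families, by 2.95 on the log2 scale in bin 4, 2.66 in bin 5 and 3.74 in bin 6; both F5 mice were below all other mice in these bins. In wild-type mice the fitted Slfn1 difference between CD4 SP and CD8 SP cells was larger at the mature than at the semimature stage, by 0.88. Both are given with no test, since Slfn1 was chosen as high in mature cells, and both were chosen after the values had been seen.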

How the results depend on the processing

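Over 26 fitted differences and their alternatives, 171 of 192 values with a mouse left out and 202 of 230 under other settings kept direction and side of the threshold. The cause of the rest was not tested unless fewer mice or genes entered. These counts include the Slfn1 differences of bins and wild-type gates, for which the side of the threshold is not a result, so they do not support those differences. The Slfn1 differences of bins and wild-type gates are values with no call: without the family covariate they were 1.23 in bin 5 and 1.12 in bin 6, in bin 6 0.70 without clusters that hold few wild-type cells (6 against 4 mice) and 0.76 without AND and F5 mice, in bin 4 0.33 without those clusters, 0.48 without AND and F5 mice, 0.85 without the family covariate, 1.41 by DESeq2, 1.10 without the filter and 1.76 with an unsmoothed score, and in semimature gates -0.17 with raised thresholds. Slfn2 in bin 5 was not called without the family covariate (0.52) or the low-count filter (0.46). Slfn2 in semimature gates was lost without the mouse block (0.37) and with raised thresholds (0.17). Slfn2 in bin 6 was called by DESeq2 (0.45), with a replicate block (0.45, adjusted p = 0.0083), an unsmoothed score (0.50), other-lineage gates left out (0.48) and libraries that stood apart left out (0.36). Slfn1 in OT-I against unsorted wild-type mice passed the threshold without those libraries (-0.999, 1 mouse against 1). The replicate block, which pairs AND with F5 mice by experiment too and the others by number only, moved bin 5 calls from 852 to 1247 genes and left the Slfn1 difference at 1.52; in bin 6 it was 1.27.

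Uncalled differences that changed sign were Slfn2 in bin 1 (0.076 without clusters with few wild-type cells, 0.072 without AND and F5 mice) and bin 4 (-0.0088 without the filter, -0.17 without libraries that stood apart), Slfn2 in MHCI-/- against sorted wild-type mice with raised thresholds (-0.013), OT-II against unsorted wild-type mice without those libraries (Slfn2 -0.075, Slfn1 -0.34) or with raised thresholds (Slfn1 -0.16), and Slfn1 in MHCII-/- against sorted wild-type mice (0.011 with raised thresholds, 0.0075 with only the 2 groups fitted).

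With each mouse left out, Slfn1 ran from 0.26 to 1.14 in bin 3, 0.90 to 1.45 in bin 4, 1.34 to 1.82 in bin 5, 1.04 to 1.62 in bin 6, 1.08 to 1.18 in mature and 0.14 to 0.31 in semimature wild-type gates, -2.71 to -2.66 in F5, -1.10 to -0.31 in OT-I, -0.30 to 0.54 in OT-II, -0.18 to 0.11 in MHCII-/-, -0.16 to -0.0053 in MHCI-/- and -0.36 to -0.27 in AND mice. Slfn2 ran from -0.11 to 0.076, -0.19 to 0.0082, -0.55 to -0.35, -0.10 to 0.080, 0.45 to 0.58 and 0.37 to 0.50 in bins 1 to 6, 0.68 to 0.75 and 0.32 to 0.44 in mature and semimature gates, -0.14 to 0.037 in F5, -0.50 to -0.09 in OT-I, 0.01 to 0.49 in OT-II, -0.022 to 0.11 in MHCII-/-, 0.05 to 0.09 in MHCI-/- and -0.23 to -0.15 in AND mice. Slfn2 in bin 6 was called without OT-I replicate 1 (adjusted p = 0.040).

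Over all alternatives the genes called ran from 0 to 36, 0 to 66, 34 to 382, 216 to 1136, 344 to 1386 and 230 to 858 in bins 1 to 6 (1, 4, 135, 630, 852 and 477 as reported), 229 to 1919 and 199 to 1849 in mature and semimature gates (1904 and 1658, lowest without the mouse block), 40 to 837, 3 to 16 and 0 to 82 in AND, MHCI-/- and OT-II (151, 3 and 5), and 7 to 798, 1 to 22 and 0 to 79 in F5, MHCII-/- and OT-I (84, 5 and 14). Shares of cells with a UMI follow depth: without thinning, at 1000 and at 2000 UMIs, Slfn1 was in 74.3%, 27.0% and 44.6% of mature SP-like cells and Slfn2 in 90.1%, 42.4% and 65.3%; Slfn2 was in 98.1%, 55.5% and 82.8% of interferon-like and 34.9%, 19.1% and 36.3% of quiescent DP-like cells. Slfn1 was in 93.7% (without thinning) and 56.8% (1000 UMIs) of interferon-like cells and 0.597% of unthinned quiescent DP-like cells. In the antibody gate of TCRβ low DP cells Slfn2 stood at 159 against 271 in quiescent DP-like cells.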
